A study of Rattus norvegicus with 6 samples.

Results

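The 7 genes described here, of 24005 gene symbols in the deposited table, belong to the machinery by which a tissue senses corticosteroids and activates or inactivates them locally. They were taken by symbol, with earlier results of these data known: the glucocorticoid receptor gene Nr3c1, the mineralocorticoid receptor gene Nr3c2, the 11-beta-hydroxysteroid dehydrogenase genes Hsd11b1 and Hsd11b2, H6pd, and the receptor co-chaperone genes Fkbp4 and Ptges3. All 7 were found in the table, and 6 of them passed the expression minimum of the test, a mean of at least 1 FPKM over the libraries. FPKM is the number of reads of a gene scaled to its length and to the library total. Hsd11b2 lay below the minimum.

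The libraries came from the aorta of rats in which chronic kidney disease had been produced by 5/6 nephrectomy in 2 operations and which were fed a diet with 1.2% phosphorus to speed up calcification. Both groups carried this disease and this diet, so there was no healthy reference group. The exosome group (3 libraries) received 10 mg/kg ANCR/E7-EXO, an engineered vesicle preparation, once every 5 days by the tail vein. The saline group (3 libraries) was given an equal volume of saline over 13 weeks. Strain, sex and age are not stated in the labels. The labels also do not say whether each library came from a separate animal, so the tests measure the spread between these libraries, which may be technical.

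Glucocorticoids act through the glucocorticoid receptor, which waits in the cytoplasm in a complex with the chaperone HSP90 and its partners, and which enters the nucleus to regulate genes once hormone is bound. The mineralocorticoid receptor binds aldosterone, but it also binds glucocorticoids with high affinity. Its access to them is set by 11-beta-hydroxysteroid dehydrogenase type 2, which inactivates them, whereas type 1 regenerates active hormone inside the cell. In the vessel wall both receptors are known in smooth muscle and endothelium, where they bear on tone, inflammation and remodelling.

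Library totals implied by the FPKM steps ranged from 28063355 to 44561082 reads or read pairs, so counting error was small for all members but Hsd11b2. Smooth muscle markers marked the tissue as labelled, led by Acta2 at a mean of 6971 FPKM. The heart muscle genes Myh7, Myh6 and Tnnt2 stood at 5.68, 3.15 and 8.58 FPKM in exosome 3. In any other library they reached at most 0.0357, 0.275 and 0.711 FPKM. Among the other skeletal and cardiac muscle markers, Myl1 was also highest in exosome 3, whereas Ckm, Acta1 and Actn3 were not. The part of such tissue in the exosome 3 values was not tested. Exosome 1 and exosome 3 stood apart from the other libraries in chaperone genes. Over 21 chaperone genes, the mean deviation from each gene's average was 0.40 and 0.64 log2 units in these libraries, against -0.28 in exosome 2 and -0.53, -0.28 and 0.05 in saline 1, 2 and 3. Values without exosome 1 and 3 are given beside several of the results. Leaving them out lowers the difference of any gene whose exosome values are highest in them, chaperone genes included. For such genes these values are a description and no independent check. Summed endothelial markers (8 genes) lay at 88.0 to 123.8 FPKM under saline and 139.0 to 214.1 FPKM under exosomes, and macrophage markers (7 genes) at 68.3 to 81.1 and 98.7 to 116.3 FPKM. In bulk tissue, more cells of a type and more RNA per cell cannot be told apart. The part of cell composition in the results for the 7 members was not tested.

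Levels of the members kept nearly the same order in every library (compared per length, in FPKM). Ptges3 was highest and Hsd11b2 lowest in all 6 libraries, and Hsd11b1 was always next to lowest. Fkbp4 and Nr3c1 exchanged the second and the third place between libraries, and H6pd and Nr3c2 the fourth and the fifth, so neither of these neighbours could be ranked beyond the spread. By mean FPKM, Ptges3, Fkbp4 and Nr3c1 ranked above 94.1%, 90.6% and 86.7% of the 11742 genes tested. Nr3c2, H6pd and Hsd11b1 ranked above 49.9%, 48.5% and 29.2% of them.

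No member passed the threshold between exosome and saline libraries in limma (adjusted p under 0.05, adjusted over all 11742 genes tested), where 1 gene in all did, a background of 0.00852%. None of the 6 passed in limma-voom either, which was run on whole reads recovered from the FPKM values. At an unadjusted p under 0.05, 1 of the 6 tested members was higher and 0 were lower, against 6.75% and 9.24% of all genes. That member, Ptges3, was also the only one of the 7 whose groups did not overlap, with all exosome libraries above all saline libraries, as in 9.4% of all genes tested. Of the 6 tested members, 3 were higher and 3 lower on average, with a median log2 difference of 0.11, against -0.07 over all genes. After rescaling to the median of ratios the split was 4 higher and 2 lower, because H6pd changed sign. The median depended on single libraries: it was -0.03 without exosome 2, 0.22 without exosome 1, and -0.11 with library weights.

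**Figure D1:**
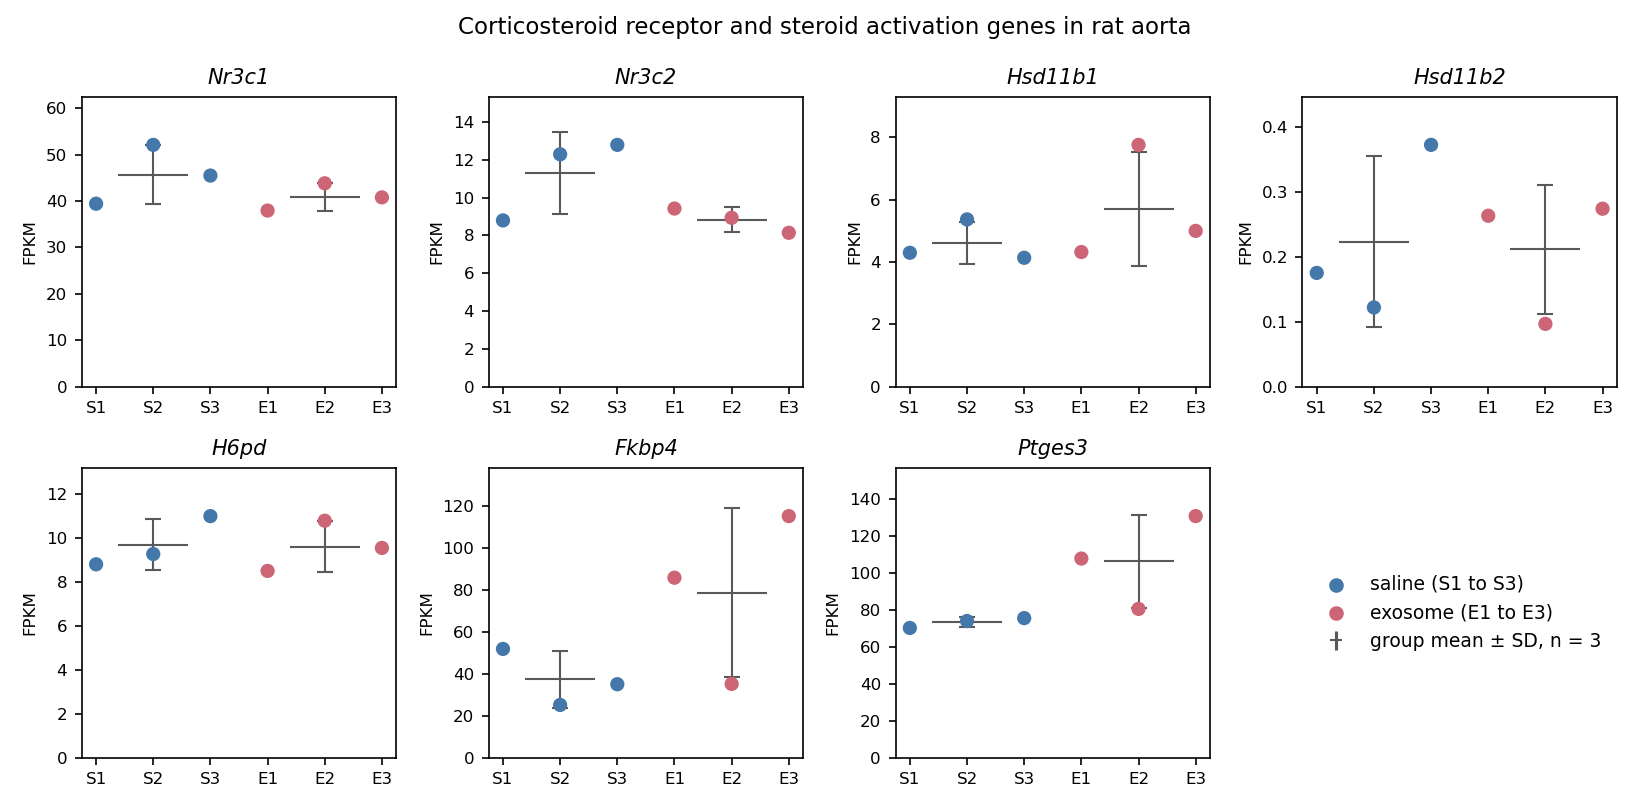
FPKM of the 7 members in each library (S1 to S3 saline, E1 to E3 exosome; linear axes from 0), with group mean and SD (n = 3). Exosome values lie above all saline values for Ptges3 alone, and E1 and E3 hold the highest Fkbp4 values, 85.98 and 115.4 FPKM.

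The first question was whether the receptors themselves differed in level. Nr3c1, which encodes the glucocorticoid receptor, stood at 39.4, 52.1 and 45.5 FPKM in saline 1, 2 and 3, and at 37.96, 43.8 and 40.8 FPKM in exosome 1, 2 and 3. Saline 2 and 3 were the highest libraries, saline 1 lay inside the exosome range, and the groups overlapped. The means were 45.7 ± 6.34 FPKM under saline and 40.9 ± 2.94 FPKM under exosomes (SD, n = 3 each). The log2 difference, exosome minus saline on the log2(FPKM + 1) scale used throughout, was -0.15 ± 0.13 (SE; 95% interval -0.45 to 0.15; adjusted p = 0.551 in limma). Between 8011 and 11840 reads per library stood behind these values, and the highest library exceeded the lowest by 1.37-fold.

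Nr3c2, the mineralocorticoid receptor gene, stood at 8.79, 12.3 and 12.8 FPKM under saline and at 9.42, 8.93 and 8.14 FPKM under exosomes. Saline 2 and 3 lay above every exosome library, while saline 1 lay below exosome 1 and exosome 2. The group means were 11.3 ± 2.18 and 8.83 ± 0.647 FPKM (SD, n = 3 each). The log2 difference was -0.31 ± 0.16 (SE), with an interval of -0.67 to 0.06 and an adjusted p of 0.362 in limma. Without saline 1 the difference was -0.46 and the adjusted p was 0.198, so the gene stayed outside the threshold with that library left out.

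Because both receptors bind the same glucocorticoids, their relative level was also compared within each library. There was 4.49, 4.24 and 3.56 times as much Nr3c1 as Nr3c2 in saline 1, 2 and 3, and 4.03, 4.91 and 5.01 times as much in exosome 1, 2 and 3. Glucocorticoid receptor RNA thus exceeded mineralocorticoid receptor RNA in all 6 libraries. The ratio overlapped between the groups, with a difference of 0.18 in the mean log2 ratio. Its two-sided exact permutation p was 0.3, and 0.7 after adjustment over the 4 gene ratios compared. With 3 libraries against 3, this test cannot go below 0.1.

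Other receptors of the steroid hormone family give a scale for these levels. Of 7 listed genes, 4 passed the expression minimum, and none of the 4 passed the test in either direction. At an unadjusted p under 0.05, 1 of the 4 was lower, where 9.24% of all genes were. All 4 were lower on average, with a median log2 difference of -0.11, although quantile normalization split them into 2 higher and 2 lower. Pgr, the progesterone receptor gene, was the most abundant of them and stood at 13.6, 14.8 and 14.9 FPKM under saline and 10.3, 12.0 and 9.39 FPKM under exosomes. Every exosome library lay below every saline library, as in 11.7% of all genes tested (log2 difference -0.42 ± 0.12 SE, adjusted p = 0.261, and -0.24 without exosome 1 and 3). Esrra, an orphan receptor gene active in energy metabolism, stood at 10.4 ± 0.715 and 9.56 ± 0.741 FPKM, and Esr1, the oestrogen receptor alpha gene, at 5.75 ± 1.33 and 5.25 ± 0.880 FPKM. Nr3c1, at a mean of 43.3 FPKM over the 6 libraries, lay above each of these genes in every library.

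Once in the nucleus, the receptors act through coactivators and corepressors. Of 21 coregulator genes listed, 19 were tested and none passed in limma in either direction, with 10 higher, 9 lower and a median log2 difference of 0.01 (14 higher and 5 lower after rescaling to the median of ratios). At an unadjusted p under 0.05, 2 were higher and 1 was lower, where 6.75% and 9.24% of all genes were. Of the 19, 2 had groups apart above and 2 apart below, against 9.4% and 11.7% of all genes. Ncoa3, a coactivator of the p160 class, stood at 12.3, 15.1 and 16.9 FPKM under saline and 18.6, 22.6 and 18.8 FPKM under exosomes. Its groups did not overlap (log2 difference 0.42 ± 0.14 SE, adjusted p = 0.284). Hexim1, which encodes an inhibitor of the elongation factor P-TEFb that also binds the glucocorticoid receptor, stood at 36.6 ± 4.61 FPKM under saline and 28.9 ± 2.30 FPKM under exosomes, again with groups apart (log2 difference -0.33, adjusted p = 0.291). Carm1, an arginine methyltransferase that acts with the p160 coactivators, had a log2 difference of 0.34 (adjusted p = 0.311) with overlapping groups.

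The next comparison concerned the enzymes that set the active hormone inside the cell. Hsd11b1, whose product regenerates active glucocorticoid, stood at 4.30, 5.37 and 4.14 FPKM in saline 1, 2 and 3 and at 4.32, 7.76 and 5.00 FPKM in exosome 1, 2 and 3. Exosome 2 was the highest library, exosome 1 and exosome 3 both lay among the saline values, and the groups overlapped. The means were 4.60 ± 0.670 and 5.70 ± 1.82 FPKM (SD, n = 3 each), with a log2 difference of 0.23 ± 0.21 (SE), an interval of -0.25 to 0.71 and an adjusted p of 0.573 in limma. Exosome 2 carried most of this difference, which was 0.02 without it. With exosome 1 and 3 both left out, it was 0.65 with an adjusted p of 0.735, on the assumption that the lone treated library varies as the saline libraries do. Reads per library ranged from 197 to 312.

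Adipose tissue is a known site of this enzyme, so adipocyte markers are given beside it. The 9 markers summed to 417.9, 1320 and 472.9 FPKM in the saline libraries and to 473.3, 841.1 and 542.6 FPKM in the exosome libraries, and all 9 had a mean of at least 1 FPKM. Saline 2 and exosome 2, the libraries with the highest sum in their groups, also held the highest Hsd11b1 of their groups. Between these libraries the order was reversed. Saline 2 had the higher marker sum, and exosome 2 the higher Hsd11b1, at 7.76 against 5.37 FPKM. The part of fat around the vessel in the Hsd11b1 values was not tested.

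Hsd11b2, whose product inactivates glucocorticoids and is best known from the kidney collecting duct, was barely detected. It stood at 0.175, 0.122 and 0.372 FPKM under saline and at 0.263, 0.0966 and 0.274 FPKM under exosomes, from 13, 8 and 28 reads and from 20, 6 and 27 reads. Saline 3 was highest and exosome 2 lowest, and the groups overlapped. Means were 0.223 ± 0.132 and 0.211 ± 0.0993 FPKM (SD, n = 3 each). In a limma fit without the expression minimum the log2 difference was -0.01 ± 0.09 (SE; adjusted p = 0.962), on a scale that compresses changes at such low levels. With so few reads, no difference was detectable at this depth. Markers of kidney tubule and collecting duct summed to at most 0.133 FPKM in any library, and 2 of the 5, Umod and Aqp2, were listed at 0 throughout.

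The activating enzyme therefore exceeded the inactivating enzyme at the RNA level in every library. Hsd11b1 was 24.6, 44.1 and 11.1 times as high as Hsd11b2 in saline 1, 2 and 3 and 16.4, 80.4 and 18.3 times as high in exosome 1, 2 and 3. The size of this ratio rests on the few Hsd11b2 reads, and exosome 2 had both the most Hsd11b1 FPKM and the fewest Hsd11b2 reads. The groups overlapped, with a log2 difference of 0.33 and a two-sided exact permutation p of 0.7, unchanged by the adjustment over the 4 ratios.

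H6pd encodes hexose-6-phosphate dehydrogenase, the enzyme of the endoplasmic reticulum that supplies the NADPH on which the type 1 enzyme depends. It stood at 8.80, 9.26 and 10.99 FPKM under saline and at 8.50, 10.8 and 9.54 FPKM under exosomes. The groups covered nearly the same range, with means of 9.68 ± 1.15 and 9.60 ± 1.14 FPKM (SD, n = 3 each). The log2 difference was -0.01 ± 0.14 (SE), with an interval of -0.33 to 0.31 and an adjusted p of 0.974 in limma. Its sign turned under all 3 rescalings of the libraries tried. Among the 7 members H6pd varied least, by 1.29-fold from the lowest to the highest library. The ratio of Hsd11b1 to H6pd was 0.489, 0.580 and 0.377 in saline 1, 2 and 3 and 0.509, 0.720 and 0.524 in exosome 1, 2 and 3. Exosome 2 again held the highest value and the groups overlapped (exact permutation p = 0.4, two-sided, and 0.7 adjusted over the 4 ratios).

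H6pd draws on glucose 6-phosphate that is carried into the endoplasmic reticulum. Of 17 genes listed for glucose 6-phosphate and NADPH supply, 16 were tested and none passed in limma. Of these, 14 were lower and 2 higher, where 7133 of all 11742 genes tested were lower and 4609 higher. The median log2 difference was -0.12, against -0.07 over all genes. After rescaling to the median of ratios the split was 9 lower and 7 higher. At an unadjusted p under 0.05, where 9.24% of all genes were lower, 1 gene of the list was lower. This was Slc37a4, the transporter gene for glucose 6-phosphate entry into the reticulum, at 13.6, 17.6 and 18.2 FPKM under saline and 11.8, 13.3 and 8.23 FPKM under exosomes. All exosome libraries lay below all saline libraries for it (log2 difference -0.54 ± 0.19 SE, adjusted p = 0.285, and -0.28 without exosome 1 and 3). Tkt, a transketolase gene of the pentose phosphate pathway, stood at 79.97 ± 19.0 and 61.4 ± 0.571 FPKM. Pgls, of the same pathway, stood at 10.2 ± 0.635 and 8.92 ± 0.528 FPKM. Both had groups that did not overlap, and neither passed (adjusted p = 0.339 and 0.444). Of the 16 genes, 3 had groups apart below and 0 above, against 11.7% and 9.4% of all genes.

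Genes for making, clearing or carrying corticosteroids were mostly absent from the tested set. Of 22 listed, 20 were matched and 8 tested, of which none passed, with 3 higher, 5 lower and a median log2 difference of -0.11 (5 higher, 3 lower and 0.07 without exosome 1 and 3). At an unadjusted p under 0.05, 2 were lower and 0 higher, where 9.24% and 6.75% of all genes were. Of the 8, 1 had groups apart below and 0 above, against 11.7% and 9.4% of all genes. The aldosterone synthase gene Cyp11b2 and Serpina6, which encodes the corticosteroid carrier of plasma, were listed at 0 in all libraries. Cyp11a1, for the first step of steroid synthesis, reached at most 0.133 FPKM. Cyp21a1, for steroid 21-hydroxylase, stood at 5.06 ± 1.51 FPKM under saline and 6.07 ± 1.48 FPKM under exosomes (adjusted p = 0.615). Fdxr, a reductase gene that feeds electrons to mitochondrial P450 enzymes, stood at 1.89, 2.76 and 3.05 FPKM under saline and 1.14, 1.48 and 0.880 FPKM under exosomes, with groups apart (log2 difference -0.71 ± 0.19 SE, adjusted p = 0.255). Cyb5a, for cytochrome b5, had a log2 difference of -0.33 with overlapping groups (adjusted p = 0.310).

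**Figure D2:**
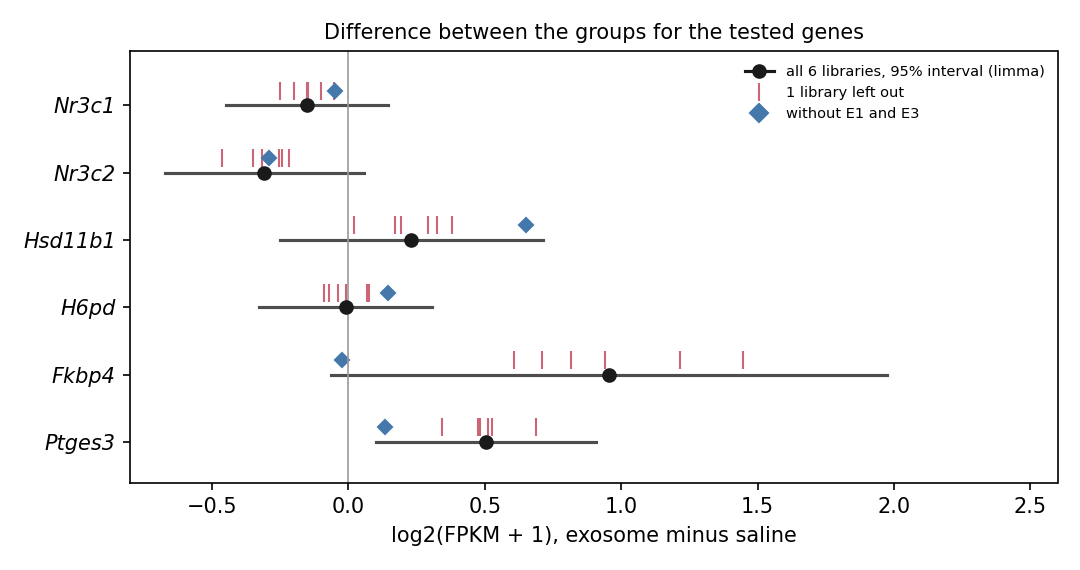
Log2 differences of the 6 tested members (exosome minus saline, log2(FPKM + 1) scale) with limma 95% intervals, the values with 1 library left out, and the values without exosome 1 and 3. The Ptges3 interval, 0.10 to 0.91, lies above 0, and the Fkbp4 difference moves from 0.96 to -0.02 without these libraries.

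The co-chaperones had the largest differences among the members. Fkbp4 encodes FKBP52, an HSP90 partner that binds dynein and favours movement of the receptor into the nucleus, and Ptges3 encodes p23, which stabilises the HSP90 complex in its hormone-binding state. Both genes were highest in exosome 1 and exosome 3, the libraries with the highest mean chaperone deviation. The saline libraries did not follow this order for Fkbp4. It was highest among them in saline 1, at 52.0 FPKM, where the chaperone deviation was lowest, at -0.53. The part of heat shock factor in the levels of both genes was not tested. The bases upstream of their start sites are shown as a description. Heat shock factor is known to bind repeats of the unit GAA and its complement TTC. RefSeq sequences (GRCr8) of promoter windows were matched for 4 of the 7 members. The 250 bases before the start are printed 5′ to 3′ on the strand of the gene, with chr4:163397919-163398168 (minus strand) for Fkbp4 and chr7:1075059-1075308 (plus strand) for Ptges3. Capitals mark matches to TCTAGAA or, in Fkbp4 alone, to GAANNTTC.
Fkbp4: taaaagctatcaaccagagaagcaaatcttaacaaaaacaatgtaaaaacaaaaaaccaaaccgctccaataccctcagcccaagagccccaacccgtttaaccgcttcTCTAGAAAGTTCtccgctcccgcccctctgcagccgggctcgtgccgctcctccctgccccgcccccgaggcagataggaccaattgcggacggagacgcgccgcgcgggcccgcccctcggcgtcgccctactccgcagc
Ptges3: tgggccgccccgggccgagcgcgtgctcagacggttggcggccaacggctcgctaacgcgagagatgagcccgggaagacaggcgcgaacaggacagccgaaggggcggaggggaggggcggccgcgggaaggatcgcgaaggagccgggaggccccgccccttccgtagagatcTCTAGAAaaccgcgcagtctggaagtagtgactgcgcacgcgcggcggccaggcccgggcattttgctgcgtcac

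Motifs were searched on both strands in windows of 300 bases (250 before to 50 after the start), counted here as 33469 windows. Fkbp4 held GAANNTTC starting 137 bases before the start, and this pattern occurs in 8.59% of all windows. Ptges3 held no match to GAANNTTC. Both genes held TCTAGAA, at 141 bases before the start in Fkbp4 and 75 in Ptges3. TCTAGAA was chosen after both sequences had been read, occurs in 4.13% of all windows, and overlaps GAANNTTC by the bases GAA in Fkbp4. TTCNNGAA (8.77% of windows), the palindromic glucocorticoid response element (AGAACA, any bases NNN, then TGTTCT, in 0.0149%) and its arm AGAACA alone (20.7%) had no match in the windows of Fkbp4, Ptges3, H6pd or Nr3c1, which says only that these letters are not in these windows.

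Ptges3 stood at 70.4, 74.1 and 75.7 FPKM in saline 1, 2 and 3 and at 107.9, 80.7 and 130.9 FPKM in exosome 1, 2 and 3. The saline libraries lay close together, exosome 2 lay just above them and exosome 3 far above. Means were 73.4 ± 2.73 and 106.5 ± 25.1 FPKM (SD, n = 3 each), a ratio of 1.45. The log2 difference was 0.50 ± 0.17 (SE), at an adjusted p of 0.284 in limma (unadjusted 0.0206). Without exosome 1 and 3, the highest libraries for this gene, it was 0.14. Ptges3 passed with library weights (adjusted p = 0.0152, or 0.0488 with weights estimated gene by gene), in fits that gave exosome 2 the lowest weight of the 6 libraries. These fits called 27.8% and 5.26% of all genes tested, and the estimation of the first set of weights had not converged. Reads from processed copies of the gene, known for Ptges3, Hspa8 and Hsp90ab1 in mammalian genomes, could not be separated.

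Fkbp4 stood at 52.0, 25.3 and 35.2 FPKM under saline and at 85.98, 35.3 and 115.4 FPKM under exosomes. Exosome 1 and 3 lay above all saline libraries, whereas exosome 2 lay within the saline range, and the highest library exceeded the lowest by 4.57-fold, the widest span of the 7 members. The means were 37.5 ± 13.5 and 78.9 ± 40.5 FPKM (SD, n = 3 each), a ratio of 2.10. The log2 difference was 0.96 ± 0.44 (SE), with an interval of -0.06 to 1.98 and an adjusted p of 0.328 in limma. It was 0.61 without exosome 3 (adjusted p = 0.690) and 1.45 without exosome 2 (adjusted p = 0.0782). With exosome 1 and 3, the highest libraries for this gene, both left out it was -0.02. Fkbp4 passed with library weights (adjusted p = 0.0152), where 27.8% of all genes passed, and not with weights estimated gene by gene (adjusted p = 0.0505).

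The other chaperone genes of the receptor complex were taken from a list of 22. Of these, 21 were tested, and none passed in limma, with 14 higher, 7 lower and a median log2 difference of 0.21 (17 higher and 4 lower after rescaling to the median of ratios). At an unadjusted p under 0.05, 4 were higher and 0 lower, where 6.75% and 9.24% of all genes were. Groups did not overlap for 4 of the 21, 3 above and 1 below, where 21.1% of all genes had groups apart (9.4% above and 11.7% below). Without exosome 1 and 3 the split was 9 higher and 12 lower, with a median of -0.02. These libraries had been set apart by the same 21 genes, so this fall follows from the choice.

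St13, which encodes the HSP70-interacting protein Hip, stood at 66.1, 71.6 and 71.3 FPKM under saline and 119.4, 84.8 and 146.2 FPKM under exosomes. The groups did not overlap, with exosome 3 highest as for Ptges3 (log2 difference 0.70 ± 0.19 SE, adjusted p = 0.255). Stip1 encodes HOP, which links HSP70 to HSP90 while the receptor is loaded. It stood at 46.6, 42.3 and 49.2 FPKM under saline and 128.8, 48.6 and 207.1 FPKM under exosomes, and exosome 2 lay within the saline range (log2 difference 1.23 ± 0.46 SE, adjusted p = 0.289). Without exosome 1 and 3 the differences were 0.28 for St13 and 0.08 for Stip1. Hsp90ab1, the constitutive HSP90 gene, stood at 396.5 ± 90.5 and 823.9 ± 419.6 FPKM and Hspa8, the constitutive HSP70 gene, at 346.9 ± 122.3 and 1010 ± 747.4 FPKM (adjusted p = 0.314 and 0.362). For both, exosome 2 lay inside the saline range, and without exosome 1 and 3 the log2 differences were -0.02 and -0.26. Cdc37, a kinase-directed HSP90 partner, differed by less than 0.01 log2 units, at 66.5 ± 4.49 and 66.4 ± 1.41 FPKM.

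**Figure D3:**
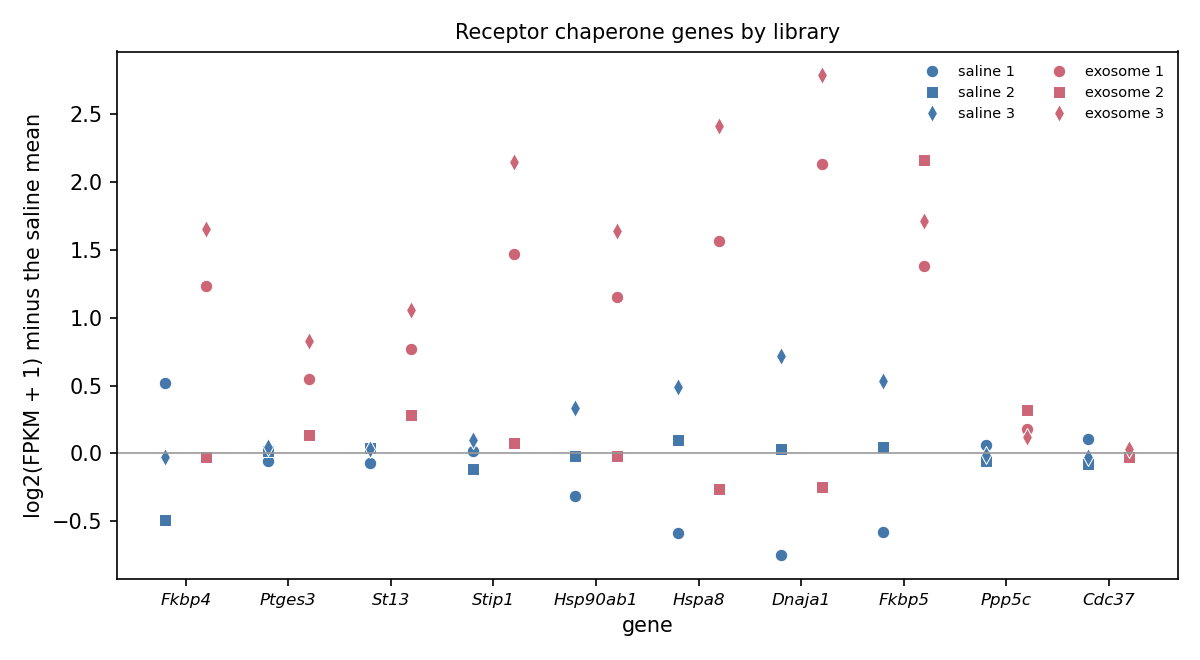
Deviation of each library from the saline mean, log2(FPKM + 1), for 10 chaperone genes of the receptor complex (saline and exosome libraries in separate colours, libraries of a group by marker shape). Exosome 1 and 3 are the highest libraries for Fkbp4, Ptges3, St13, Stip1, Hsp90ab1, Hspa8 and Dnaja1, whereas exosome 2 is highest for Fkbp5 and Ppp5c. Beyond the members and the 3 list genes with the smallest p, the genes shown were chosen after their values were seen. Of all 21 tested genes of the chaperone list, 14 were higher and 7 lower on average.

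Fkbp5 ran the other way among the exosome libraries. It encodes FKBP51, a co-chaperone that competes with FKBP52 for HSP90, lowers hormone binding by the receptor and is itself a well-known glucocorticoid target. It stood at 3.69, 6.23 and 9.17 FPKM under saline and at 17.3, 30.5 and 21.98 FPKM under exosomes. No saline library reached the lowest exosome library, and exosome 2, the lowest of its group for Fkbp4 and Ptges3, was the highest for Fkbp5. Means were 6.36 ± 2.74 and 23.3 ± 6.67 FPKM (SD, n = 3 each), and the log2 difference was 1.75 ± 0.30 (SE; adjusted p = 0.219 in limma). Without exosome 1 and 3 the difference was 2.17 (adjusted p = 0.379). Fkbp5 passed with library weights (adjusted p = 0.0138) and with weights estimated gene by gene (adjusted p = 0.0424), where 27.8% and 5.26% of all genes passed.

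The balance of the competing co-chaperones varied more between exosome libraries than the groups differed. The ratio of Fkbp5 to Fkbp4 was 0.0710, 0.247 and 0.261 in saline 1, 2 and 3 and 0.201, 0.863 and 0.191 in exosome 1, 2 and 3. Exosome 1 and 3 lay below saline 2 and 3, exosome 2 lay far above all other libraries, and saline 1 far below. The log2 difference was 0.95, with an exact permutation p of 0.6 (two-sided, 0.7 adjusted over the 4 ratios). It was 0.24 without exosome 2 and 2.38 without exosome 1 and 3.

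**Figure D4:**
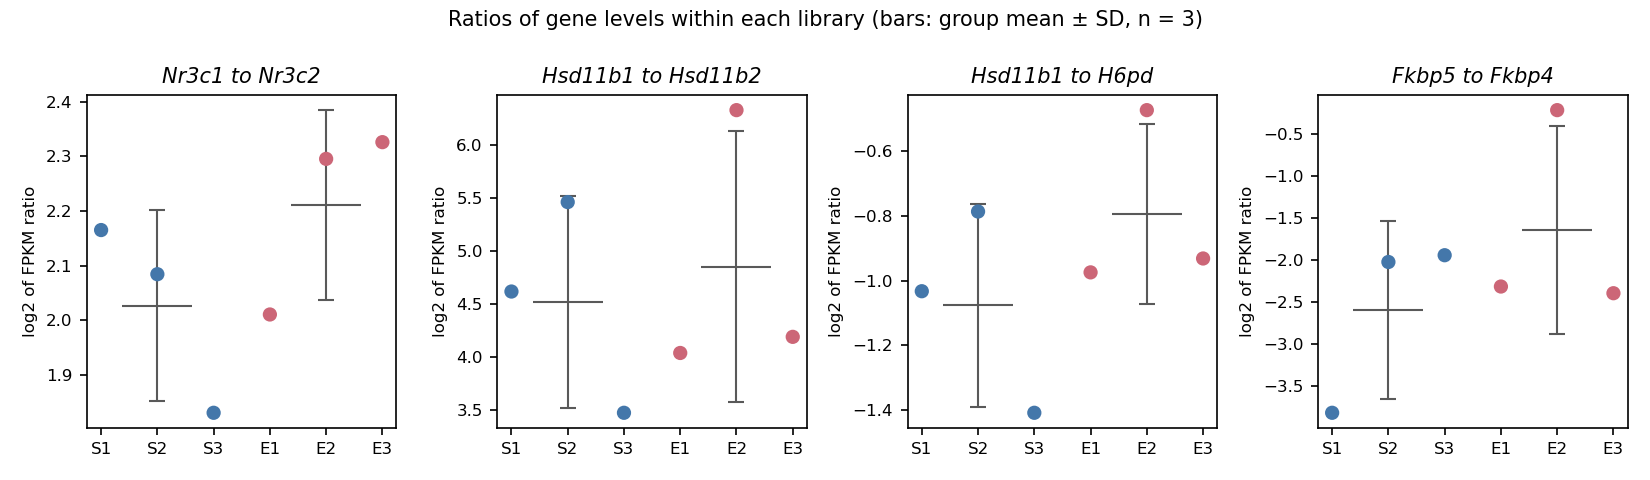
Log2 ratios of FPKM within each library for 4 gene pairs, with group mean and SD (S1 to S3 saline, E1 to E3 exosome, n = 3 each; the axes do not start at 0 and differ between panels). The groups overlap in every panel, and exosome 2 is the highest library for Hsd11b1 to Hsd11b2, Hsd11b1 to H6pd and Fkbp5 to Fkbp4.

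Targets of the receptors were read from lists written with earlier results of these data known, including those for Zbtb16, Cd163, Nfkbia and Per1, so their counts are a description only. Of 26 glucocorticoid-induced genes, all were tested, 1 passed as higher and 0 as lower, and 21 were higher on average, with a median log2 difference of 0.59. At an unadjusted p under 0.05, 13 were higher and 1 lower, where 6.75% and 9.24% of all genes were. Groups were apart for 13, 12 above and 1 below, against 9.4% and 11.7% of all genes. Without exosome 1 and 3, 21 were still higher on average, none passed, and the median was 1.10. Zbtb16, a transcription factor gene, was the one that passed, at 8.91, 12.4 and 10.998 FPKM under saline and 47.0, 45.9 and 52.6 FPKM under exosomes (log2 difference 2.08 ± 0.14 SE, adjusted p = 0.00806 in limma). Without saline 3 or without exosome 1 its log2 difference was 2.10 in both fits, but its adjusted p was 0.0865 and 0.0503, and no gene passed. Cd163, a macrophage scavenger receptor gene, and Nfkbia, the gene of an NF-kB inhibitor, had log2 differences of 1.09 and 1.20 (adjusted p = 0.143 and 0.219). Summed macrophage markers, with Cd163 itself among the 7, were higher in the same libraries, as given above. Groups were apart above for 4 of the 7, and the part of macrophages in the Cd163 value was not tested. Tsc22d3, which encodes the glucocorticoid-induced leucine zipper GILZ, stood at 14.0, 23.8 and 19.6 FPKM under saline and 39.9, 62.3 and 39.0 FPKM under exosomes (log2 difference 1.25 ± 0.24 SE, adjusted p = 0.237), with exosome 2 highest as for Fkbp5 and Hsd11b1. Not all known targets went this way, since Dusp1 stood at 336.9 ± 125.4 and 251.8 ± 36.6 FPKM and Tgm2 at 399.4 ± 19.3 and 312.0 ± 46.8 FPKM.

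Of 16 mineralocorticoid receptor targets, 13 were tested and none passed in limma, with 11 higher, 2 lower and a median log2 difference of 0.25. The median was 0.09 without saline 2, and library weights gave 8 higher, 5 lower and a median of 0.09. At an unadjusted p under 0.05, 3 were higher and 0 lower, where 6.75% and 9.24% of all genes were. The 3 were Tsc22d3, Per1 and Sgk1, which are targets of both receptors. Of the 13, 2 had groups apart above and 0 below, against 9.4% and 11.7% of all genes. Per1, a clock gene, stood at 20.1 ± 2.69 and 32.6 ± 10.5 FPKM with groups apart (adjusted p = 0.283). Sgk1, the kinase that links aldosterone to sodium transport, stood at 14.8, 12.5 and 16.6 FPKM under saline and 21.0, 15.8 and 22.7 FPKM under exosomes, and exosome 2 lay inside the saline range (log2 difference 0.41, adjusted p = 0.304, and 0.11 without exosome 1 and 3). The genes for the epithelial sodium channel, Scnn1a, Scnn1b and Scnn1g, lay below the expression minimum, and Scnn1b was the highest of them at 0.507 ± 0.334 FPKM under saline and 0.398 ± 0.101 FPKM under exosomes.

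The genes whose pattern over the 6 libraries was most like each member's were ranked by Pearson's r of log2(FPKM + 1), as a description over few points that share library and depth. For Ptges3 the closest was St13 (r = 0.995), a gene of the chaperone list, which does not hold Ptges3 itself, followed by Csk and Sh3d19 (both 0.994). Fkbp4 was closest to Sdad1 (0.999), Gemin5 (0.995) and Mtcl1 (0.995). Genes close to Nr3c1 included Apmap (0.988) and Endog (0.985), and the closest to Nr3c2 were LOC108348112 (0.993), Chchd3 (0.991) and Tbc1d5 (0.9898). For Hsd11b1 they were Agtpbp1 (0.994), Cytl1 (0.982) and Eya4 (0.982). Cytl1 shared its high value in exosome 2, at 349.9 FPKM against 88.9 to 172.2 FPKM in the other libraries. H6pd was closest to Pa2g4 (0.991), Impdh2 (0.989) and Aggf1 (0.985).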

How the data were processed

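RNA-seq of rat aorta (3 exosome and 3 saline libraries) was deposited by the authors as FPKM per gene symbol, made with a SMARTER mRNA-Seq kit per the labels' protocols. The submitters' processing notes list DESeq2 1.28.1. An aligner, counter, strand setting, genome build or annotation is not given in the sources used here. Reads of overlapping or duplicated genes could therefore not be separated.

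The test was limma 3.58.1 (R 4.3.3) on log2(FPKM + 1), with an intensity trend, two-sided, over 11742 genes with a mean of at least 1 FPKM, and Benjamini-Hochberg adjustment with a threshold of 0.05. This scale understates changes of low genes. Whole reads were recovered from the FPKM steps for 16155 of 16156 genes above 0 in at least 4 libraries, within 0.02 reads. Gene ratios used exact permutation over libraries. Python 3.11.15 was used otherwise. On simulated libraries of this comparison (11739 genes), 92% of 100 genes changed 2-fold and 100% of 100 changed 4-fold were recovered, with 16 unchanged genes called. The simulation gave every gene and library the same variability beyond counting error. The real libraries were unequal, with weights from 0.305 (exosome 2) to 9.20 (exosome 1). These shares are therefore not the power of the test in the real libraries.

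The members and lists were chosen with earlier results of these data known. Besides the members, the 3 genes with the smallest p of each list are named, and genes named beyond that were chosen after their values were seen. A gene that the rule for similar patterns takes is not reported here. Of 138 list entries, 135 matched the table by symbol or synonym. Replicate numbers are shared between groups, but deviations of same-numbered libraries correlated at 0.068, 0.096 and -0.165, so they were not taken as pairs.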

Additional observations from a re-analysis of the deposited data

How the results depend on the processing

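Alternatives were pseudocounts of 0.1 and 0.01, no filter or a minimum of 5 FPKM, 3 rescalings, other moderation, library weights, a replicate block, voom on recovered reads, a threshold of 0.1, and libraries left out. Nr3c1 and Nr3c2 kept their direction in all 20 alternatives run for each, and neither passed in any. With 1 library left out their log2 differences ranged from -0.25 to -0.05 and from -0.46 to -0.22. The number of genes past the threshold, 1 as reported, was 2 with quantile normalization, 3268 with library weights (whose estimation stopped before it converged), 618 with weights estimated gene by gene (added after the data were seen), and 0 without exosome 1 and 3. It ranged from 0 to 9 with 1 library left out. Members past the threshold, 0 as reported, numbered 2 with library weights and 1 with weights gene by gene: Fkbp4 (log2 difference 1.33) and Ptges3 (0.54) in the first, and Ptges3 (0.56) in the second. Both sets of weights favoured exosome 1 (9.20 and 2.81) and were lowest for exosome 2 (0.305 and 0.386). The cause of these changes was not tested further.

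The log2 differences that changed sign follow. H6pd was 0.023 after rescaling to equal sums, 0.058 after rescaling to the median of ratios, 0.048 with quantile normalization and 0.15 without exosome 1 and 3, and ranged from -0.089 to 0.075 with 1 library left out. Hsd11b2 was 0.0079 after rescaling to the median of ratios, 0.022 with quantile normalization, 0.015 with library weights, 0.016 with weights gene by gene, and -0.071 to 0.074 with 1 library left out. Hsd11b1 was -0.046 with library weights, and Fkbp4 -0.024 without exosome 1 and 3. The log2 difference of the Hsd11b1 to Hsd11b2 ratio ranged from -0.40 to 0.81 with 1 library left out, negative without saline 3 or exosome 2. With the replicate block 1 gene passed in all and 0 members, so no member's call changed; of the saline libraries, number 2 alone correlated best with its own number. Fewer than 30 Hsd11b2 reads per library limit what can be said of that gene.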
